A study of Mus musculus with 6 samples.

Results

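Genes for proteins that bind RNA and steer alternative splicing were followed in mouse common myeloid progenitors carrying a mutant or a wild-type splicing factor. The genes were picked by name, as a set of 8, with earlier results of these data known, and 7 of the 8 were found: Mbnl1 and Mbnl2 (muscleblind), Celf1 and Celf2 (CUGBP and ELAV-like), Rbfox2, Qk (Quaking) and Ptbp1 (polypyrimidine tract binding). They are 7 of the 13932 genes of the gene table and hold 137 of the 151811 splice junctions. The name Ptbp3 matched no row. The RefSeq gene table gives Rod1 as an older symbol of Ptbp3, and Rod1, with 26 junctions, is described beside the 7. Because of how the genes were picked, every S34F against WT value below is a description, and its adjusted p-value only places the gene or exon within the whole table.

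The tested cells came from marrow with a doxycycline-inducible U2AF1(S34F) transgene and the rtTA transactivator, and the comparison cells from marrow with U2AF1(WT) and rtTA. Mice of both groups had been transplanted with this marrow, had engrafted for more than 6 weeks and had eaten doxycycline chow for 5 days, so WT is an induced transgene and not an untreated state. Donor-derived progenitors were sorted as lineage-, c-Kit+, Sca-1-, CD34+ and Fc gamma receptor-. Each of the 3 libraries per genotype pooled 4 to 5 mice. Shared marrow donors between pools are not stated, so p-values measure the spread between these pools. Strain, age and the promoter behind rtTA were not stated.

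U2AF1 is the small subunit of the factor that recognises the AG at the end of an intron, and S34F lies in one of its zinc fingers and is recurrent in myelodysplastic syndromes. MBNL, CELF, RBFOX, QK and PTB proteins act beside this core machinery: they bind short RNA motifs in or near an exon and raise or lower its use, often depending on whether the site lies before or after the exon. Many of them splice their own transcripts and those of their relatives. MBNL and CELF proteins are known as opponents in heart and muscle development, PTBP1 as a repressor of neuronal exons, and QK as a regulator of macrophage and smooth muscle splicing.

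Gene counts per library were 46827909 to 51862032 in S34F and 54727541 to 94562984 in WT, and junction counts 41003848 to 44589528 in S34F and 46491099 to 82730420 in WT. Levels are CPM, read counts scaled to library size by TMM. The progenitor markers Kit, Cd34, Myb and Cd33 were all measured and summed to 1843 to 1932 CPM in S34F libraries and 1867 to 1946 CPM in WT libraries. U2af1 itself had 119, 136 and 122 CPM in S34F libraries and 105, 125 and 128 CPM in WT libraries. The tables do not separate transgene from endogenous reads, so this does not check the labels. Replicate 1 of each genotype held almost no Xist, with 1 count in S34F and 5 counts in WT, against 67264 to 128694 counts in the other 4 libraries. For gene levels and cassette exons of the 8 genes, differences within the libraries without Xist (1 per genotype) and with Xist (2 per genotype) are given beside the pooled ones; they were not computed for single acceptor and donor choices. Of 10 marker lists, those of dendritic cells and megakaryocytes separated the genotypes by their summed CPM. The sums of the erythroid, granulocyte, monocyte, B cell, T and NK cell, mast cell and low-progenitor lists overlapped. The 6 dendritic markers, all measured, summed to 46.4 to 94.7 CPM in S34F libraries and 151 to 327 CPM in WT libraries, and the 5 megakaryocyte markers to 83.6 to 113 CPM and 123 to 168 CPM. A single marker can differ from its sum. The megakaryocyte marker Pf4 overlapped, at 3.68 to 4.38 CPM in S34F libraries and 2.24 to 5.40 CPM in WT libraries. The dendritic marker H2-Aa did not, at 7.49 to 18.5 CPM and 63.0 to 113 CPM. The other markers of both lists are given only as sums. T and NK cell markers summed to at most 3.86 CPM in any library, with Cd3e, Cd3g and Ncr1 not in the table, and the B cell marker Pax5 was not in it either. The part of these cells in the results below was not tested, and in bulk RNA fewer cells of a type and less RNA per cell cannot be told apart.

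Per length of transcript, the 8 genes fell into a high group, a middle group and Rbfox2. CPM was divided by the length of the merged annotated exons, and each gene was compared with its neighbour in the order within each of the 6 libraries of both genotypes. The order was ranked on these same libraries, so it is given as a description with no p-value. Mbnl1, whose product binds YGCY-type sites, averaged 126 ± 9.81 CPM per kb (SD, n = 6), Ptbp1 104 ± 14.7 and Rod1 98.5 ± 10.1. Mbnl2 averaged 23.2 ± 2.18 CPM per kb, Celf2 16.8 ± 1.72, Qk 16.1 ± 1.48 and Celf1 14.0 ± 1.53. Rbfox2 averaged 0.510 ± 0.142 CPM per kb.

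Of the 7 neighbour pairs, 5 kept their order in all 6 libraries. Rod1 stood above Mbnl2 by 2.09 ± 0.06 on the log2 scale (mean and SD of the ratio within libraries, n = 6) and Celf1 above Rbfox2 by 4.82 ± 0.39. Mbnl1 stood above Ptbp1 by 0.28 ± 0.18, Mbnl2 above Celf2 by 0.47 ± 0.12 and Qk above Celf1 by 0.20 ± 0.06. Ptbp1 over Rod1 held in 5 of 6 libraries (0.08 ± 0.25), as did Celf2 over Qk (0.06 ± 0.06), and neither difference exceeded its spread. The authors' FPKM, whose length model is not stated, gave the same 3 leading genes and the same last gene in another order: Ptbp1 115 ± 16.3, Rod1 82.2 ± 12.3, Mbnl1 68.3 ± 11.4, Celf2 31.3 ± 4.56, Qk 17.0 ± 2.34, Mbnl2 15.1 ± 1.77, Celf1 10.3 ± 1.48 and Rbfox2 0.310 ± 0.0534 FPKM. Mbnl1 against Ptbp1 and Mbnl2 against Celf2 thus stood in the opposite order by FPKM, which can differ from the counts in read assignment as well as in length.

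**Figure D1:**
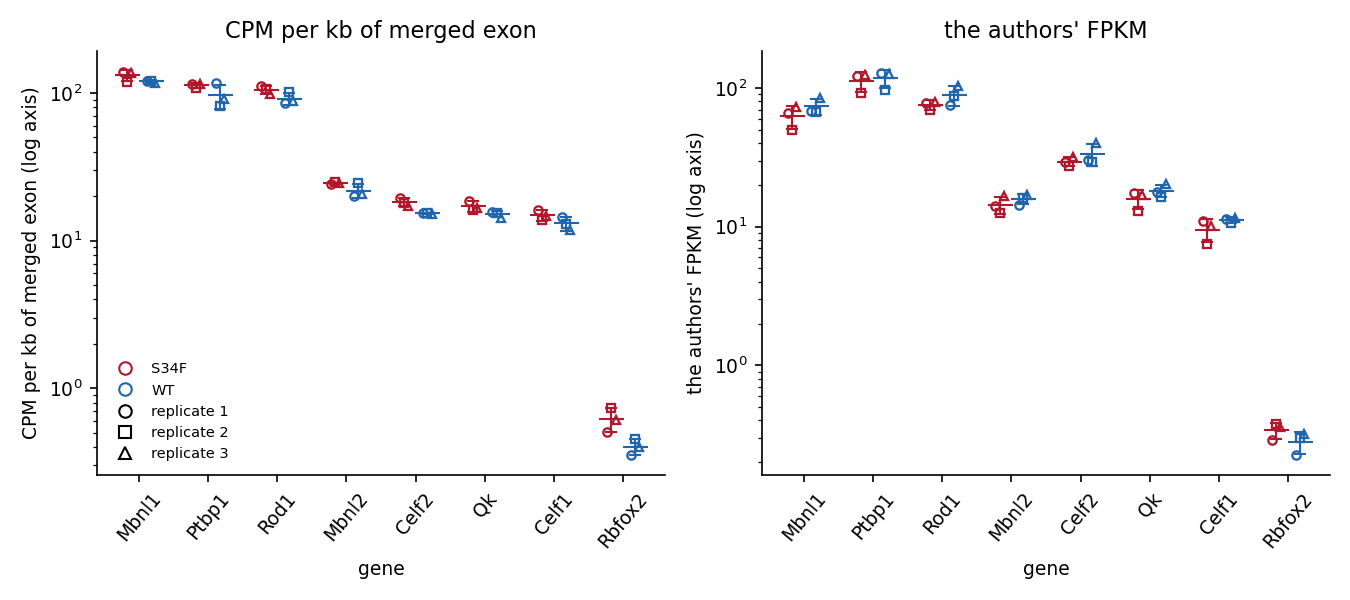
Levels per length of the 8 genes, on log axes, as CPM per kb of merged exon (left) and as the authors' FPKM (right). Symbols are libraries, with S34F to the left of WT, and bars show the mean and SD of 3 libraries; Mbnl1, Ptbp1 and Rod1 lie above the other genes on both scales and Rbfox2 below all of them.

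Gene levels leaned upward in S34F progenitors by small amounts, and no gene of the set was called by any tool. The 7 members had log2 fold changes of 0.14 to 0.61 on the CPM scale, with a median of 0.18, against a median of -0.01 over 13905 genes, of which 49.1% were higher. edgeR's quasi-likelihood test with Benjamini-Hochberg adjustment called 0 of the 7, as it called 0% of all genes. At an unadjusted p under 0.05 it had 2 of the 7 and 1265 of all genes. DESeq2 called none of the 7 and 0.689% of all genes. Genotypes did not overlap, with S34F higher, for 3 of the 7, against 7.16% of all genes. On the authors' FPKM scale, 7 of the 8 genes were lower in S34F, with Rbfox2 as the exception. That scale moved the median of 10050 genes at 1 FPKM or more by -0.33 in log2. Relative to that median, the 8 genes stood 0.10 to 0.61 higher, so their direction is a statement relative to other genes.

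Celf2, which encodes an RNA-binding protein of nucleus and cytoplasm abundant in blood cells, had 239, 219 and 212 CPM in S34F libraries and 189, 189 and 187 CPM in WT libraries. Every S34F library lay above every WT library. The log2 fold change was 0.25 with a standard error of 0.09 (edgeR adjusted p = 0.538; DESeq2 adjusted p = 0.327). It was 0.34 within the libraries without Xist and 0.20 within those with Xist.

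Qk, whose KH-domain protein binds ACUAAC-type sites, had 190, 163 and 168 CPM in S34F libraries and 159, 156 and 145 CPM in WT libraries. The groups did not overlap, but the gap between them was small. Its log2 fold change was 0.18 ± 0.10 (SE, edgeR adjusted p = 0.581), at 0.26 within the libraries without Xist and 0.14 within those with Xist.

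Rbfox2, the UGCAUG-binding member, had 3.77, 5.46 and 4.50 CPM in S34F libraries and 2.61, 3.36 and 2.98 CPM in WT libraries. The groups did not overlap and Rbfox2 had the largest log2 fold change of the set, 0.61 ± 0.22 (SE, edgeR adjusted p = 0.538), on 144 to 280 reads per library. It was 0.53 within the libraries without Xist and 0.65 within those with Xist. Its 11 junctions shared no donor and no acceptor, so there was no exon or splice site choice to test. They had at most 37 reads in a library.

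Mbnl1 had 788, 672 and 775 CPM in S34F libraries and 681, 686 and 663 CPM in WT libraries. Replicate 2 of S34F fell among the WT libraries, and the log2 fold change was 0.14 ± 0.10 (SE, edgeR adjusted p = 0.646), at 0.21 within the libraries without Xist and 0.10 within those with Xist. Ptbp1 had 548, 511 and 544 CPM in S34F libraries and 552, 387 and 433 CPM in WT libraries. Its highest library was WT replicate 1, and its difference was -0.01 in log2 within the libraries without Xist and 0.37 within those with Xist. Mbnl2, Celf1 and Rod1 had log2 fold changes of 0.17 ± 0.10, 0.18 ± 0.11 and 0.20 ± 0.11 (SE, edgeR adjusted p = 0.601, 0.610 and 0.579), and the genotypes overlapped for each. Within the libraries without Xist these genes differed by 0.28, 0.16 and 0.37 in log2, and within those with Xist by 0.13, 0.20 and 0.12.

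**Figure D2:**
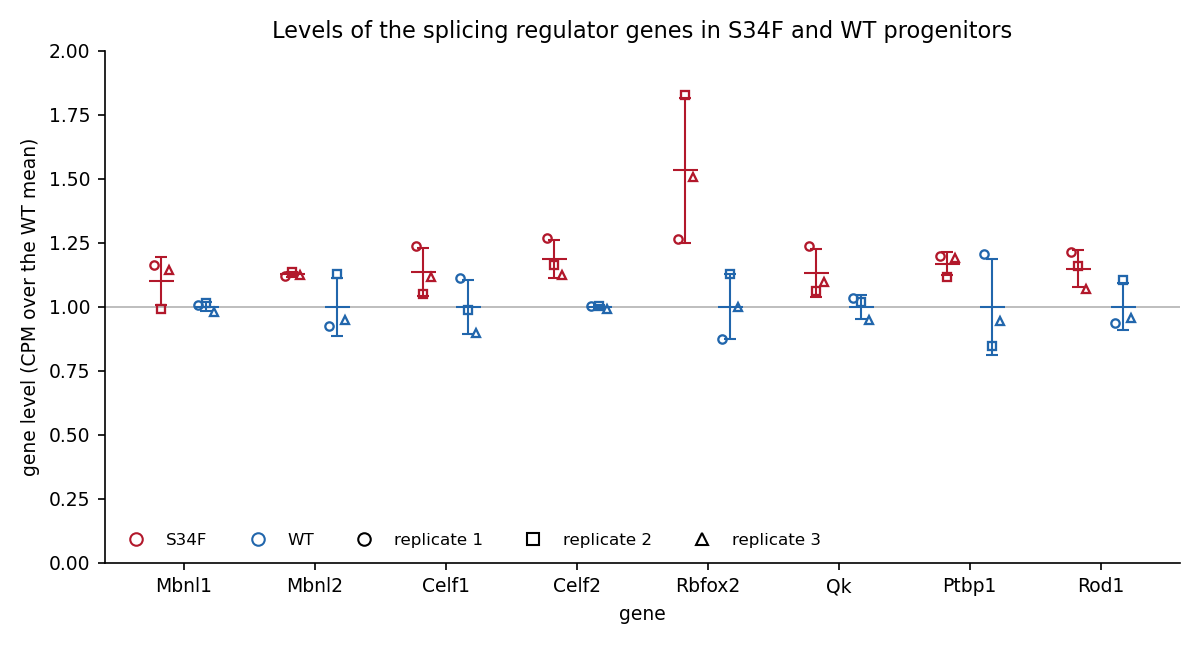
CPM of each gene in each library divided by the mean of the 3 WT libraries. S34F symbols stand to the left of WT symbols and bars show mean and SD of 3 libraries; the genotypes do not overlap for Celf2, Rbfox2 and Qk, and overlap for the other 5 genes.

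The genes whose pattern over the 6 libraries lay closest to Mbnl1 and Ptbp1 were found by Euclidean distance between z-scored log2 CPM, among 9165 genes. For Mbnl1 these were Ebag9, Nrp1 and Wars2, at distances of 0.317, 0.385 and 0.459 against a median distance of 3.23. For Ptbp1 they were Carm1, Sf3a2 and Rnf10, at 0.103, 0.104 and 0.117 against a median of 3.30.

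Splicing inside these genes was read from junctions. For a cassette exon, inclusion is the mean of the 2 inclusion junctions as a percentage of that mean plus the skipping junction, and an exon was tested where it was 10 to 1000 nt long, had at least 20 reads in every library and both forms made up at least 2%. Of 8595 such exons, 20 belonged to 6 of the 7 members and 2 to Rod1. Inclusion was lower in S34F for 11 of the 20 and higher for 9, with a median difference of -0.74 points, against -0.42 over all exons. Genotypes did not overlap, with S34F lower, for 5 of the 20, against 11.8% of all exons, and with S34F higher for 2, against 7.46%. Those lower without overlap by 5 points or more were 3 of the 20, against 7.26% of all exons, and lie in Celf2, Ptbp1 and Mbnl1. edgeR called 0 of the 20, as it called 0% of all exons, with 6 of the 20 and 876 of all exons at an unadjusted p under 0.05. DESeq2 called 1 of the 20, in Mbnl1, against 1.31% of all exons.

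**Figure D3:**
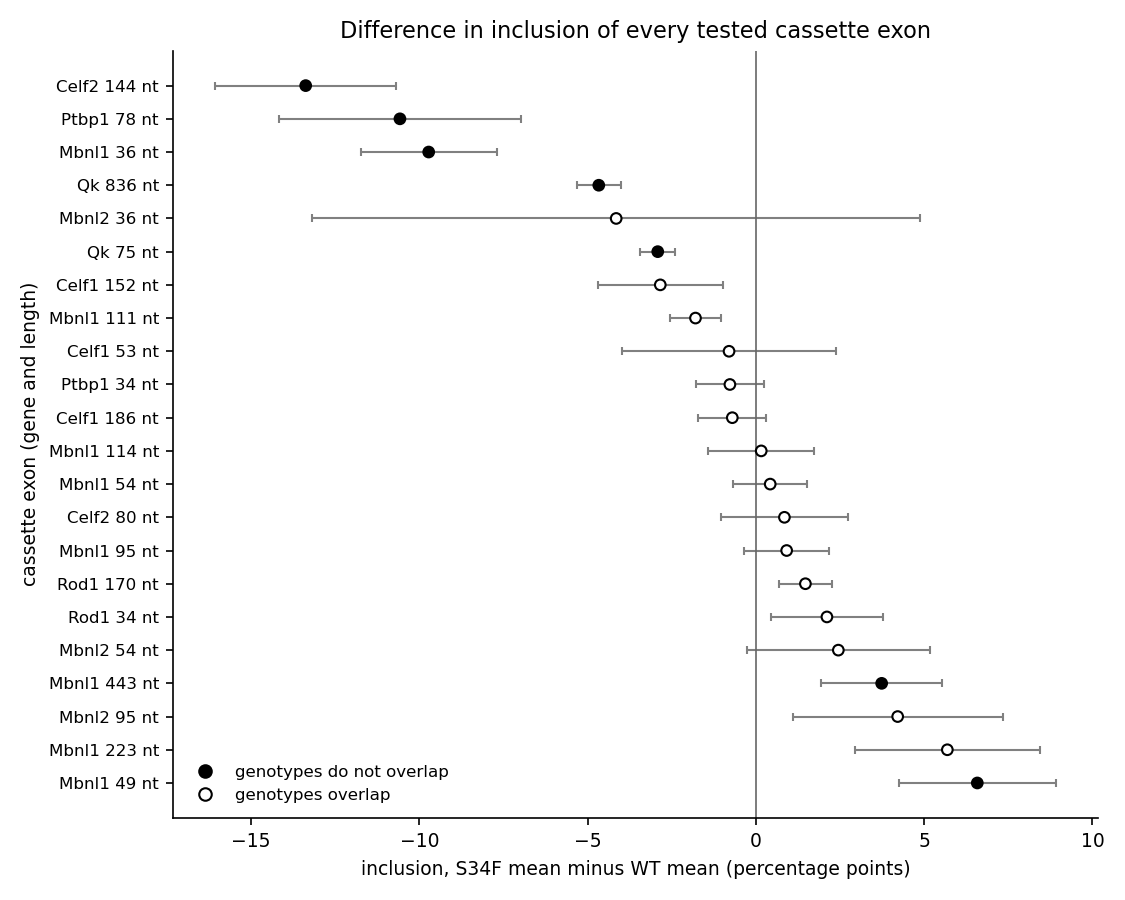
Difference in inclusion, S34F mean minus WT mean in percentage points, for the 22 tested exons, with bars for the standard error of the difference (3 libraries per genotype). Filled points are exons whose genotypes do not overlap; Celf2, Ptbp1 and Mbnl1 exons lie between -13.4 and -9.72 points, and most other exons within 5 points of 0.

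Mbnl1 (ENSMUSG00000027763, chromosome 3, 60277032 to 60433670, plus strand, mm9) skipped a 36-nt coding exon more often in S34F progenitors. This exon, at 60425345 to 60425380, lies in the part of the protein after the zinc fingers, adds 12 codons and is present in all 5 annotated transcripts. Its inclusion was 81.2%, 83.5% and 87.5% in S34F libraries and 93.9%, 92.3% and 95.2% in WT libraries. Every S34F library was below every WT library. The mean difference was -9.72 points, and the log2 ratio of inclusion to skipping reads differed by -1.52 ± 0.28 (SE; edgeR adjusted p = 0.293; DESeq2 adjusted p = 0.0108; limma adjusted p = 0.315). The skipping junction had 204, 157 and 169 reads in S34F libraries and 78, 113 and 85 reads in WT libraries, while the junction into the exon had 874, 833 and 1190 reads in S34F libraries and 1203, 1446 and 1681 in WT libraries. DESeq2 kept the call without S34F replicate 3 and without WT replicate 2, and lost it without any of the other 4 libraries. The difference was -12.7 points within the libraries without Xist and -8.24 points within those with Xist.

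The junction that skips the exon joins a known donor and a known acceptor in a combination outside the annotation. In the authors' deposited table it is the only junction of the 163 tested in Mbnl1, its relatives here and Rod1 with a DEXSeq adjusted p under 0.05, with a log2 fold change of 1.49 and an adjusted p of 3.42e-05; 0.34% of all junctions in that table pass. As a share of all acceptors of its donor, this junction took 17.9%, 15.4% and 12.1% in S34F libraries and 5.80%, 6.80% and 4.75% in WT libraries. It was the single acceptor choice of 61 in the members that DESeq2 called (adjusted p = 0.00661; edgeR adjusted p = 0.434), against 1.27% of all choices by DESeq2 and 0% by edgeR. Seen from the shared acceptor, the donor choices of the skipping junction and of the exon differed by 9.76 points each way (DESeq2 adjusted p = 0.0312; edgeR adjusted p = 0.563). They were the 2 donor choices called of 54, against 0.811% of all by DESeq2 and 0.00997% by edgeR.

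The 36-nt exon and its surroundings are shown because the exon carries the only call in the set. In the first 2 lines TGCATG, the RBFOX motif as DNA, is in capitals; the next 2 lines are acceptors of 30 intron and 3 exon bases with the last 3 intron bases in capitals.
Mbnl1 36-nt exon, chr3:60425345-60425380, plus strand: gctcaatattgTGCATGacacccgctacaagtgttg
Mbnl1 intron before it, chr3:60425315-60425344: caccttcctgttgcaaTGCATGatgggcag
Acceptor of the 36-nt exon, chr3:60425315-60425347: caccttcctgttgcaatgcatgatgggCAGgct
Acceptor of the next exon, chr3:60426038-60426070: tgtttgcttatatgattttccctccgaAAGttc
The exon and the last intron bases before it each hold TGCATG once. The acceptor of the exon ends in CAG and that of the next exon in AAG.

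The 49-nt form of another Mbnl1 exon, at 60419647 to 60419695, had an inclusion of 92.8%, 98.8% and 99.0% in S34F libraries and 91.5%, 91.3% and 88.0% in WT libraries. The genotypes did not overlap, but the skipping junction had only 6, 1 and 1 reads in S34F libraries and 8, 9 and 15 in WT libraries. Inclusion here is set against that junction alone, and the 49-nt form was a minor one. From the same donor, the junction into it had 94, 132 and 164 reads in S34F libraries and 108, 87 and 197 in WT libraries. That into the acceptor at 60419542 had 1143, 939 and 1292 reads in S34F libraries and 1362, 1532 and 1883 in WT libraries. The mean difference was 6.58 points (edgeR adjusted p = 0.495; DESeq2 adjusted p = 0.426), at 1.28 points within the libraries without Xist and 9.23 within those with Xist. The donors that feed this form differed by 5.41 points each way with overlapping genotypes.

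At the 5′ end of Mbnl1, a 223-nt exon outside the annotation, at 60332678 to 60332900, had an inclusion of 27.6%, 29.2% and 29.4% in S34F libraries and 28.1%, 18.9% and 22.1% in WT libraries. The groups overlapped (mean difference 5.69 points, edgeR adjusted p = 0.595), and the difference was -0.50 points within the libraries without Xist and 8.78 within those with Xist. Nearly all inclusion reads of this form joined one side. The junction before it had 501, 447 and 685 reads in S34F libraries and 658, 662 and 1010 in WT libraries. The junction after it had 37, 24 and 49 reads in S34F libraries and 37, 24 and 8 in WT libraries. The percentages thus mostly count use of the acceptor at 60332678, not of the 223-nt form. From the first exon, the acceptor at 60332678 differed by 6.37 points and that at 60399516 by -5.40 points, and donors into 60399516 by -7.74 and 6.68 points, all with overlapping groups. From an unannotated donor at 60305016, the acceptor at 60332678 took 37.9%, 47.7% and 42.3% in S34F libraries and 29.8%, 14.5% and 26.4% in WT libraries, and these groups did not overlap (19.1 points, edgeR adjusted p = 0.671), on as few as 65 reads in a library. The other 5 Mbnl1 exons differed by -1.79 to 3.74 points, among them the 54-nt exon at 60418605 to 60418658, at 14.4%, 12.1% and 11.0% in S34F libraries and 12.6%, 11.3% and 12.4% in WT libraries. The 443-nt exon at 60304903 to 60305345, also outside the annotation, had an inclusion of 22.1%, 22.3% and 21.1% in S34F libraries and 20.8%, 14.8% and 18.7% in WT libraries, and these groups did not overlap (edgeR adjusted p = 0.652). It differed by 1.30 points without Xist and 4.96 with Xist. The 54-nt, 111-nt, 114-nt and 95-nt exons differed by 1.86, -2.45, 1.35 and 2.50 points without Xist and by -0.29, -1.47, -0.44 and 0.12 points with Xist. In human MBNL1 an exon of 54 nt is known to favour a nuclear location of the protein.

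Mbnl2 (chromosome 14) has counterparts of the Mbnl1 exons, with 46 of 54 bases of the 54-nt exon, 31 of 36 bases of the 36-nt exon and 81 of 95 bases of a 95-nt exon identical. The 36-nt pair is shown because it is the exon that differed in Mbnl1, with the bases that differ between the genes in capitals.
Mbnl1 36-nt exon, chr3:60425345-60425380: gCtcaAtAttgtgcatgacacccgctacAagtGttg
Mbnl2 36-nt exon, chr14:120802558-120802593: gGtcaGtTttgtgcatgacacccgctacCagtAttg
TGCATG is present in both. The Mbnl2 exon is in none of the annotated transcripts, and its use varied widely between libraries. Its inclusion was 0%, 13.8% and 11.8% in S34F libraries and 27.7%, 9.64% and 0.690% in WT libraries, on 41 to 91 reads in all. The groups overlapped, and edgeR's adjusted p was 0.982. The difference was -27.7 points within the libraries without Xist and 7.63 within those with Xist. The 54-nt exon of Mbnl2 differed by 2.45 points with overlapping groups, at 7.59 points without Xist and -0.12 with Xist. Its 95-nt exon differed by 4.21 points, also with overlapping groups, at 1.43 points without Xist and 5.61 with Xist. Of the Mbnl2 donor choices, the skip past the 95-nt exon took 58.9%, 53.5% and 57.6% in S34F libraries and 60.9%, 62.9% and 62.1% in WT libraries, without overlap (-5.31 points, edgeR adjusted p = 0.939).

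Ptbp1 (ENSMUSG00000006498, chromosome 10, 79317172 to 79327516, plus strand) used its 78-nt exon less in S34F libraries. The exon, at 79322862 to 79322939, codes for part of the linker between RNA recognition motifs, and its presence is known to alter how strongly PTBP1 represses its targets. Inclusion was 29.6%, 29.7% and 31.4% in S34F libraries and 39.7%, 35.3% and 47.4% in WT libraries. The groups did not overlap, and the WT libraries spread more (SD 6.16 points) than the S34F libraries (SD 1.01 points). The mean difference was -10.6 points and the log2 ratio differed by -0.67 ± 0.23 (SE; edgeR adjusted p = 0.406; DESeq2 adjusted p = 0.312). It was -10.2 points within the libraries without Xist and -10.8 within those with Xist. The acceptor and donor choices that flank the exon gave 10.7 and 10.3 points each way, with edgeR adjusted p = 0.688 and 0.737.

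The exon and its 2 competing acceptors are printed because the exon has T at intron position -3, counted back from the first exon base, and the next exon has C.
Ptbp1 78-nt exon, chr10:79322862-79322939, plus strand, MBNL-type motifs in capitals: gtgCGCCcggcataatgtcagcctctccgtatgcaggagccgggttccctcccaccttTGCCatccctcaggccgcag
Acceptor of the 78-nt exon, chr10:79322832-79322864: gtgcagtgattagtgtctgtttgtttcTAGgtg
Acceptor of the next exon, chr10:79323539-79323571: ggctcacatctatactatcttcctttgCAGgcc
The 34-nt exon of Ptbp1 at 79324759 to 79324792, whose skipping shifts the reading frame and is known as a self-regulating step of PTBP1, had an inclusion of 96.9%, 94.6% and 97.1% in S34F libraries and 96.5%, 96.2% and 98.2% in WT libraries. These groups overlapped, with a difference of -0.77 points (edgeR adjusted p = 0.795), at 0.43 points without Xist and -1.37 with Xist. A rare pair of donors into 79321817 differed by 19.5 points each way on as few as 24 reads, with overlapping groups (edgeR adjusted p = 0.901).

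Celf2 (ENSMUSG00000002107, chromosome 2, 6460751 to 7002348, minus strand) had the largest difference among the 22 exons. Its 144-nt exon at 6470878 to 6471021 codes for much of the third RNA recognition motif. Of the 15 annotated transcripts of the gene, 9 span the exon and 8 hold it. Inclusion was 64.6%, 58.7% and 65.5% in S34F libraries and 73.0%, 78.3% and 77.6% in WT libraries. No S34F library reached the lowest WT library. The mean difference was -13.4 points and the log2 ratio differed by -0.93 ± 0.29 (SE; edgeR adjusted p = 0.383; DESeq2 adjusted p = 0.115). It was -8.48 points within the libraries without Xist and -15.8 within those with Xist. The acceptor and donor choices around the exon gave 15.0 and 12.1 points each way, with DESeq2 adjusted p = 0.0811 and 0.303.

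The Celf2 exon is shown for the same reason as that of Ptbp1, with T at position -3 of its own acceptor and C at that of the next.
Celf2 144-nt exon, chr2:6470878-6471021, minus strand, MBNL-type motifs in capitals: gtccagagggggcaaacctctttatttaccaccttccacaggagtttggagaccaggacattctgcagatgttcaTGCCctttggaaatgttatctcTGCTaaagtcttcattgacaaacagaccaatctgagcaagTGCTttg
Acceptor of the 144-nt exon, chr2:6471019-6471051: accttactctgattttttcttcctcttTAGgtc
Acceptor of the next exon, chr2:6468257-6468289: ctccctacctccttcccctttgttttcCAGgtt
At the exon before it, 2 donors compete for the acceptor at 6475010. The one at 6481705 took 58.3%, 63.3% and 57.6% in S34F libraries and 51.6%, 55.8% and 53.1% in WT libraries, without overlap (6.26 points, edgeR adjusted p = 0.897). The 80-nt exon of Celf2 differed by 0.85 points with overlapping groups, at 1.86 points without Xist and 0.34 with Xist.

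Qk (ENSMUSG00000062078, chromosome 17, 10399336 to 10512245, minus strand) ends in alternative 3′ exons that give its isoforms different tails. A 75-nt exon in that region, at 10406224 to 10406298, had an inclusion of 95.0%, 94.7% and 96.0% in S34F libraries and 98.9%, 97.8% and 97.7% in WT libraries. The groups did not overlap, with a mean difference of -2.92 points (edgeR adjusted p = 0.355), resting on 13, 16 and 15 skipping reads in S34F libraries and 4, 7 and 12 in WT libraries. It was -3.91 points without Xist and -2.42 with Xist. An 836-nt span that shares the same skipping reads differed by -4.67 points, at -5.78 without Xist and -4.11 with Xist, and is not an annotated exon. A pair of donors into the acceptor at 10407059 differed by 23.7 points in the means with overlapping groups, but the junction from 10407119 had 75, 77 and 69 reads in S34F libraries and 80, 114 and 0 reads in WT libraries. The log2 ratio of that pair differed by 1.34 ± 1.78 (SE, edgeR adjusted p = 0.942) with all libraries and by -0.08 without WT replicate 3.

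Celf1 (chromosome 2) had 3 exons that differed by -2.84 to -0.70 points, each with overlapping groups. Its 53-nt, 152-nt and 186-nt exons differed by 1.72, -1.06 and 1.21 points without Xist and by -2.06, -3.73 and -1.66 points with Xist. Its one choice beyond 5 points was an unannotated acceptor at 90858945, which took 0%, 0.833% and 3.25% in S34F libraries and 9.49%, 4.29% and 9.83% in WT libraries. These groups did not overlap (-6.51 points, edgeR adjusted p = 0.658; DESeq2 adjusted p = 0.260), on 0, 1 and 4 reads in S34F libraries and 13, 9 and 23 reads in WT libraries. Rod1 had 2 exons at 1.47 and 2.11 points, both with overlapping groups, at 3.11 and 4.65 points without Xist and 0.65 and 0.84 with Xist. Over all members, 10 of 61 acceptor choices and 13 of 54 donor choices had genotypes that did not overlap, against 17% and 14.8% of all choices; the forms of a site share reads.

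**Figure D4:**
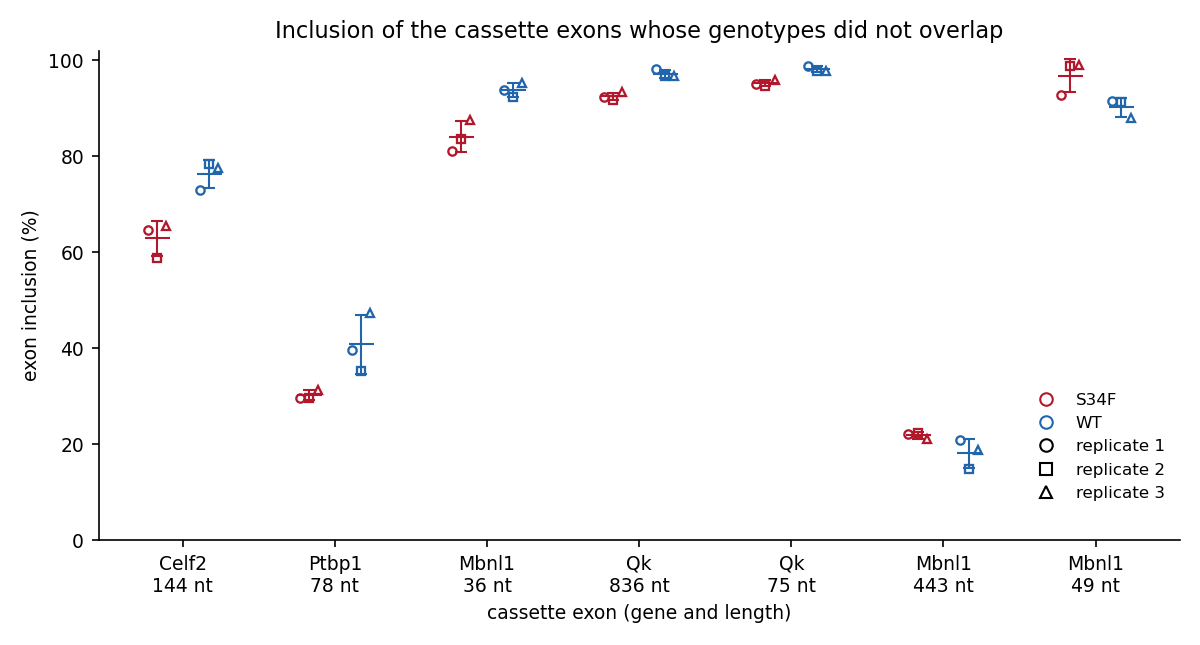
Inclusion in percent of the 7 tested exons whose genotypes did not overlap, ordered by difference. Symbols are libraries, with S34F to the left of WT, and bars show mean and SD of 3 libraries; the Celf2, Ptbp1 and Mbnl1 36-nt exons are lower in S34F and the Mbnl1 49-nt and 443-nt exons higher.

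The exons were then set beside the base at position -3 of their own acceptor. Inclusion was lower in S34F for 6 of 7 exons with T, 3 of 9 with C and 2 of 6 with A, and these exons differed by medians of -2.92, 0.85 and 0.67 points. The Qk forms of 75 and 836 nt, both with T, share their skipping reads. The Mbnl1 forms of 114, 443 and 223 nt, all with C, also share theirs, so these are not separate observations. Over all 8595 exons, 78.0% of those with T, 44.6% with C and 33.6% with A were lower, with medians of -2.40, 0.34 and 1.25 points. By the base of the next exon's acceptor, inclusion was lower for 0 of 5 exons with T, 7 of 13 with C and 4 of 4 with A, against 52.9%, 56.1% and 57.9% of all exons. The 5 exons with T there are all in Mbnl1, and 3 of them share their skipping reads. At their own acceptor, the Ptbp1 78-nt, Celf2 144-nt and Qk exons have T, as do exons of Celf1, Mbnl1 and Rod1. Of these, Rod1's was the one that was not lower. The Mbnl1 36-nt exon was lower with C at its own acceptor.

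Motifs of the same families were counted on the transcribed strand in each exon and in 250 bases of intron on either side. The RBFOX motif UGCAUG was near 10 of the 22 exons, against 21.8% of all exons, and the QK motifs ACUAAC or ACUAAU near 8, against 18.6%. The PTB motifs CUCUCU or UCUUU were near 21, against 83.5%, and the CELF motifs UGUUUG or UGUGUG near 18, against 57.7%. At least 4 copies of an MBNL motif (CGCU or UGCU, and also CGCC or UGCC) were near 19 of the 22, against 91.1%. Overlapping exons of Mbnl1 and Qk share windows, and a match is no evidence of binding. The lengths of 10 of the 22 exons were multiples of 3, against 40.2% of all.

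Relatives and partners of the members were taken from a list of 51 genes, of which 35 were tested. None was called by edgeR or DESeq2, against 0% and 0.689% of all genes. Of the 35, 25 were higher and 10 lower, with a median log2 fold change of 0.11, against 49.1% of all genes higher and a median of -0.01. Genotypes did not overlap for 6 that were higher and 2 that were lower, against 7.16% and 8.47% of all genes. Mbnl3, the third muscleblind gene, averaged 112 ± 7.93 CPM in S34F libraries and 85.9 ± 7.93 CPM in WT libraries (SD, n = 3 each; log2 fold change 0.39 ± 0.11 SE, edgeR adjusted p = 0.538). Rbm25 and Tardbp had log2 fold changes of 0.70 ± 0.22 and 0.56 ± 0.20. Khdrbs3, Rbm10 and Rbm4b stood at the other end, at -0.21 ± 0.30, -0.15 ± 0.10 and -0.15 ± 0.16. Ptbp2, the neuronal PTB gene, was level at 40.7 ± 0.720 CPM in S34F libraries and 41.1 ± 3.55 CPM in WT libraries (log2 fold change -0.02 ± 0.10).

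Genes known to carry exons regulated by these families formed a second list, with 29 tested for level and 50 cassette exons of 22 genes. By level, none was called, against 0% of all genes by edgeR and 0.689% by DESeq2, and 18 of the 29 were higher and 11 lower, against 49.1% of all genes higher. Genotypes did not overlap for 0 that were higher and for 2 that were lower, Cltb and Add3, against 7.16% and 8.47% of all genes. Atp2a2, Foxp1 and Mef2d led at 0.58 ± 0.29, 0.52 ± 0.29 and 0.39 ± 0.29 in log2, each with overlapping genotypes, and Cltb, Itga6 and Add3 trailed at -0.30 ± 0.16, -0.16 ± 0.16 and -0.15 ± 0.10. Of the 50 exons, edgeR called none and DESeq2 called 3, against 1.31% of all. The called exons were a 167-nt exon of Pkm2 and a pair of overlapping forms in H2afy that share their skipping reads.

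Pkm2, the pyruvate kinase gene whose mutually exclusive exons PTB proteins help select, included its 167-nt exon at 5.81%, 4.81% and 4.86% in S34F libraries and 2.91%, 3.12% and 2.23% in WT libraries. The groups did not overlap (2.41 points, edgeR adjusted p = 0.293, DESeq2 adjusted p = 0.0401). Nearly all inclusion reads counted lay on one side. The junction before it had 350, 405 and 318 reads in S34F libraries and 207, 343 and 379 in WT libraries. The junction after it was counted only to 59523375, the acceptor that the skipping junction also uses. It had 0, 0 and 8 reads in S34F libraries and 6, 5 and 2 in WT libraries. H2afy, which encodes the histone macroH2A1 and has an exon pair known to depend on QK, included its 91-nt form at 2.12%, 2.07% and 2.58% in S34F libraries and 4.33%, 4.69% and 3.94% in WT libraries. These groups did not overlap (-2.06 points, edgeR adjusted p = 0.235, DESeq2 adjusted p = 0.00714), and the 184-nt form gave -2.02 points. Here too the counted reads lay on one side, with at most 28 on the junction before the 91-nt form in any library. That junction was counted only from the donor at 56191119, which ends another tested H2afy exon. The skipping reads are also those of the junction after that other exon. The Pkm2 and H2afy percentages are means of the junctions before and after, so they understate use of the side with reads. Each is set against a single pair of flanking sites. Junctions of these exons to other sites were not counted, so the percentages do not measure the whole use of either exon. In Mef2d, a muscle and blood transcription factor gene, a 421-nt exon had an inclusion of 86.9%, 90.4% and 94.7% in S34F libraries and 76.3%, 64.7% and 62.6% in WT libraries, without overlap, on as few as 28 reads (22.8 points, edgeR adjusted p = 0.356, DESeq2 adjusted p = 0.157). A 307-nt form of the same exon differed by 13.3 points. The forms share the junction before them, with 105, 72 and 103 reads in S34F libraries and 96, 18 and 75 in WT libraries. The junction after the 421-nt form had only 14, 3 and 5 reads in S34F libraries and 7, 4 and 12 in WT libraries. That after the 307-nt form had 75, 58 and 92 reads in S34F libraries and 71, 29 and 118 in WT libraries. The 421-nt percentages therefore rest mostly on the shared junction.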

How the data were processed

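RNA from 6 sorted progenitor pools, 3 per genotype, was rRNA-depleted and sequenced as stranded pairs of 100 bp, per the labels' protocols. The series text names TopHat 2.0.8 and mm9; per the submitters' processing notes, Bowtie2 2.1.0, Cufflinks 2.1.1, HTSeq 0.5.4p1 and DESeq2 1.6.1 also entered the processing, in roles not given. Whether counting used the strand is not given in the sources used here, so antisense reads cannot be told apart. The authors deposited raw counts per gene and junction, FPKM per gene, and their own tests with log2 fold changes and p-values; the fold changes and p-values are named as theirs where used. Another 6 columns that repeat gene counts were not used.

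Genotypes follow the titles, since the genotype entry read S34F for every sample. Counts were fitted with edgeR 4.0.16 (TMM, expression filter, quasi-likelihood test) in R 4.3.3. Junction events entered as 2 counts per library with terms for library, form and genotype by form. DESeq2 1.42.0 and limma 3.58.1 (0.5 added) were alternatives, all adjusted by Benjamini-Hochberg at 0.05. The gene and cassette exon fits were also run on simulated data, whose outcome is not given here and is not used as support. Coordinates are mm9, counted from 1; sequences come from the NCBIM37 genome with the GENCODE annotation through pysam 0.24.0, in which 99.8% of gene identifiers were found. All tests are two-sided. A planned sign-flip test of the order of levels is not reported, since the order was ranked on the libraries it would test. Depth limits low genes and rare junctions: the smallest deposited junction total was 12 reads.

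Members, lists and tests were chosen with earlier results of these data known. Named are all members, exons and splice site choices that differ by at least 5 points or are called by any tool, the 3 largest rises and falls of each list at 5 CPM or more, the 5 target exons of lowest edgeR p, and the 3 genes at 10 CPM or more most like Mbnl1 and Ptbp1. Values given for other exons and genes were added after seeing them. Printed junction positions are last and first exon bases; 5000 GT-AG junctions were checked against the genome.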

Additional observations from a re-analysis of the deposited data

How the results depend on the processing

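No gene of the set, and no cassette exon of it outside Mbnl1, changed its call under the alternatives run, and every log2 fold change of the 8 genes kept its sign in the count-based fits. Over all features, DESeq2 called 96 genes, 108 cassette exons, 376 acceptor and 244 donor choices, where edgeR called 0, 0, 0 and 3. Requiring both forms at 5% gave 3 exons. A term for Xist status gave 0 donor calls. Leaving out each library gave 0 to 1172 gene calls, the highest without WT replicate 1, 0 exon calls, 0 acceptor calls and 0 to 5 donor calls. DESeq2 without each library, added after seeing the data as was the Xist term, gave 49, 20 and 62 exons without S34F replicates 1, 2 and 3, and 140, 100 and 25 without WT replicates 1, 2 and 3. The numbers of the replicates share no stated source, and the deviations of same-numbered libraries correlated at 0.27, 0.34 and 0.04, with S34F replicate 3 closer to WT replicate 1 (0.14), so pairing was not assumed; the replicate block gave 5 genes, 0 exons, 0 acceptor and 0 donor choices. The Qk donor pair at 10407059 had log2 ratios from -0.0773 (without WT replicate 3) to 2.65 for one form, and from -2.65 to 0.0773 for the other, when single libraries were left out. By the authors' FPKM, Mbnl1 stood below Ptbp1 (-0.76) and Mbnl2 below Celf2 (-1.05), while Ptbp1 over Rod1 and Celf2 over Qk then held in all libraries (0.49 and 0.88). Among the tools run here, DESeq2 alone called the 4 Mbnl1 results around the 36-nt exon, while the authors' DEXSeq called the skipping junction. The cause of these changes was not tested.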
